A study of Rattus norvegicus with 24 samples.

Results

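Among the genes counted in the dorsal raphe and amygdala of 2 bred rat lines, 120 stood highest in dorsal raphe libraries with later library numbers, relative to dorsal raphe libraries with earlier ones. They were chosen from the measured values themselves. Each of the 12 dorsal raphe libraries has a library number in its table header, and 5 were taken as later (high-responder libraries 4, 5 and 6 and low-responder libraries 5 and 6) and 7 as earlier (high-responder libraries 1 to 3 and low-responder libraries 1 to 4). For each gene, d was the mean of log2(CPM + 1) over the later libraries minus that over the earlier ones, where CPM is the gene's count divided by the library's total count and scaled to a common total. Genes needed a mean of at least 5 CPM in the later libraries and a dorsal raphe level within 8-fold of the amygdala level in either direction. Of 32662 gene IDs in the tables, 11036 met those bounds, after 3 IDs and the 662 table lines above line 32000 had been set aside, and the 120 with the largest d were kept. Later and earlier are positions within a line, since the numbers of the lines come in separate blocks, and the sources used here do not say what the numbers stand for.

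The dorsal raphe is a midbrain nucleus known for serotonin neurons that project widely over the forebrain, the amygdala included, and it also holds other neurons and glia. The amygdala is a forebrain region known for its part in emotional behaviour. The lines were bred over generations for their response to novelty: high-responder rats explore an unfamiliar place more, low-responder rats less. All rats were 60 days old and no treatment is named in the labels. Poly-A libraries were made from RNA isolated by Qiagen miRNeasy, 6 in each of 4 groups: high-responder dorsal raphe, low-responder dorsal raphe, high-responder amygdala and low-responder amygdala. The labels do not tell whether each library is a separate animal. The p-values therefore rest on the variation among the sequenced libraries, some of which may be technical. In pieces of whole tissue, fewer cells of a type and less RNA per cell cannot be told apart.

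Gene names are not in the tables, and the RefSeq reference table matched 0 of the IDs. The members are therefore given by Ensembl ID, with no function, and no marker list could be checked against the labelled regions. Members named for their pattern across libraries, other than the top 2 by d and those that passed a test, were chosen after their values were seen.

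The size of the gap was modest for most members. The value of d ran from 0.65 to 2.27 with a median of 0.72, and 14 of the 120 reached 1. On the linear scale, the mean CPM of the later libraries over that of the earlier libraries had a median of 1.73 and ran from 1.32 to 17.0. Over all 11036 genes within the bounds, the median d was -0.03. The lower end of the list was not set off from the genes below it. The last 3 members had d of 0.6525, 0.6512 and 0.6512, and the first 3 genes left out had 0.6490, 0.6485 and 0.6484. These gaps chose the members and are given as a description. In edgeR's quasi-likelihood test with the line as a covariate, 48.1% of the 14390 genes tested in the dorsal raphe were called at an adjusted p under 0.05, 24.3% as higher and 23.8% as lower in later libraries. That fit called 112 of the 119 members it tested, a count that the choice of members fixes.

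The members were of moderate abundance. Their mean level in the later libraries had a median of 21.4 CPM and ran from 5.12 to 564 CPM. There were 23 members at 5 to 10 CPM and 11 at 100 CPM or more. The genes within the bounds had a median of 34.8 CPM in the same libraries. The most abundant member, ENSRNOG00000018958, had 561, 519 and 350 CPM in high-responder later libraries 4, 5 and 6 and 941 and 450 CPM in low-responder later libraries 5 and 6. In the earlier libraries it had 335, 283 and 316 CPM in high-responder rats and 298, 440, 294 and 319 CPM in low-responder rats. Its groups overlapped, because the earlier low-responder library 2 lay above the later high-responder library 6.

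The summed level of the members in each library shows how the gap was spread over libraries. That the 5 later dorsal raphe libraries lie above the rest follows from the choice of members, and the values are a description. The summed level was 6029, 5960 and 4655 CPM in later high-responder libraries 4, 5 and 6 and 7340 and 4746 CPM in later low-responder libraries 5 and 6. The earlier libraries ran from 2903 to 3935 CPM with a median of 3319 CPM. Later libraries averaged 5746 ± 1102 CPM (SD, n = 5) and earlier ones 3325 ± 347 CPM (SD, n = 7). The 12 amygdala libraries, at 3312 to 4333 CPM, overlapped the earlier dorsal raphe libraries and lay below all later ones. The later set was itself uneven, with low-responder library 5 highest and high-responder library 6 and low-responder library 6 lowest. The 5 members that added most to the gap made up 31.3% of it.

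**Figure D1:**
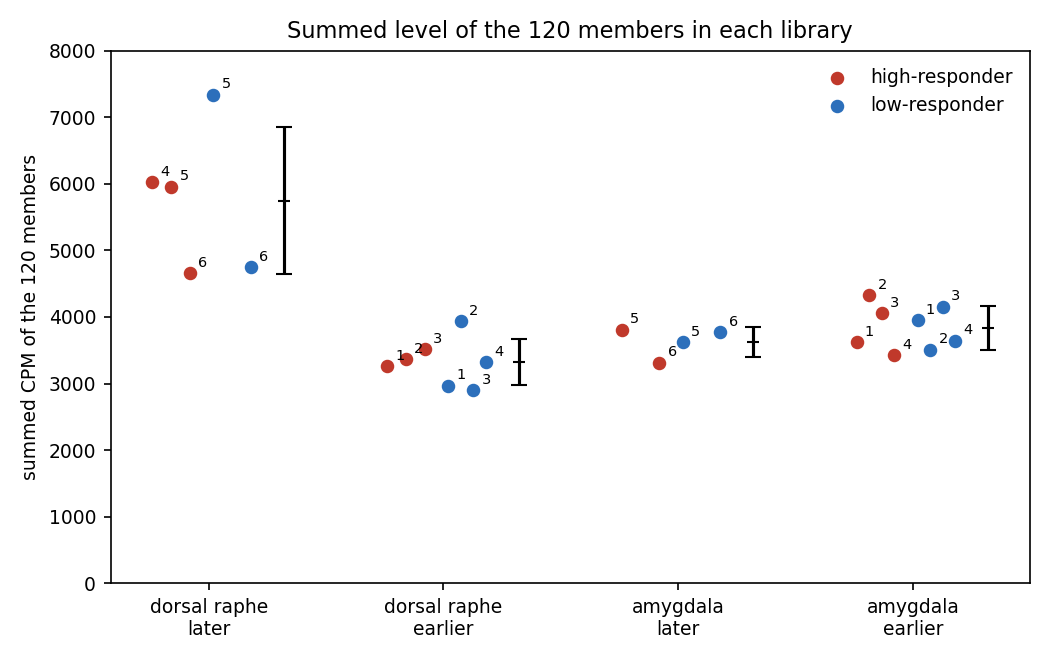
Summed level of the 120 members (CPM) in each of the 24 libraries, by region and set. Points are libraries with their number, coloured by line, and black bars are the mean ± SD of the set. The 5 later dorsal raphe libraries lie between 4655 and 7340 CPM, above every other library, and low-responder library 5 is highest.

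The same library led most members. Of the 120, 73 were highest in low-responder dorsal raphe library 5, 22 in high-responder library 5, 15 in high-responder library 4, 6 in high-responder library 6 and 3 in low-responder library 6. The exception, ENSRNOG00000006365, was highest in an earlier library, high-responder library 2, at 27.3 CPM, and ran from 0.105 to 13.1 CPM in the later libraries. The lowest of the 12 libraries was an earlier one for all 120, and for 37 members it was low-responder library 3. How often each library was highest or lowest over all genes within the bounds was not counted. Relative to the mean of the earlier libraries on the log2(CPM + 1) scale, the median member stood 1.07 higher in low-responder library 5, 0.87 in high-responder library 4 and 0.80 in high-responder library 5. In high-responder library 6 and low-responder library 6 it stood 0.50 and 0.49 higher. Among the earlier libraries this median was lowest, at -0.19, in low-responder library 3 and highest, at 0.24, in low-responder library 2.

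Complete separation, with every later library above every earlier one, held for 45 of the 120 members, against 5.52% of the 11036 genes within the bounds, a count that the choice of members also raises. The libraries that most often broke it were high-responder library 6 and low-responder library 6, each above all earlier libraries in 78 members, against 106 for low-responder library 5, 102 for high-responder library 4 and 99 for high-responder library 5. On the earlier side, low-responder library 2 lay below all later libraries in 80 members and low-responder library 3 in 113. These counts by library were not made over all genes within the bounds, so they describe the members alone. Leaving out 1 dorsal raphe library at a time and choosing again kept 95 to 109 of the 120, and the fewest were kept without low-responder library 5.

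**Figure D2:**
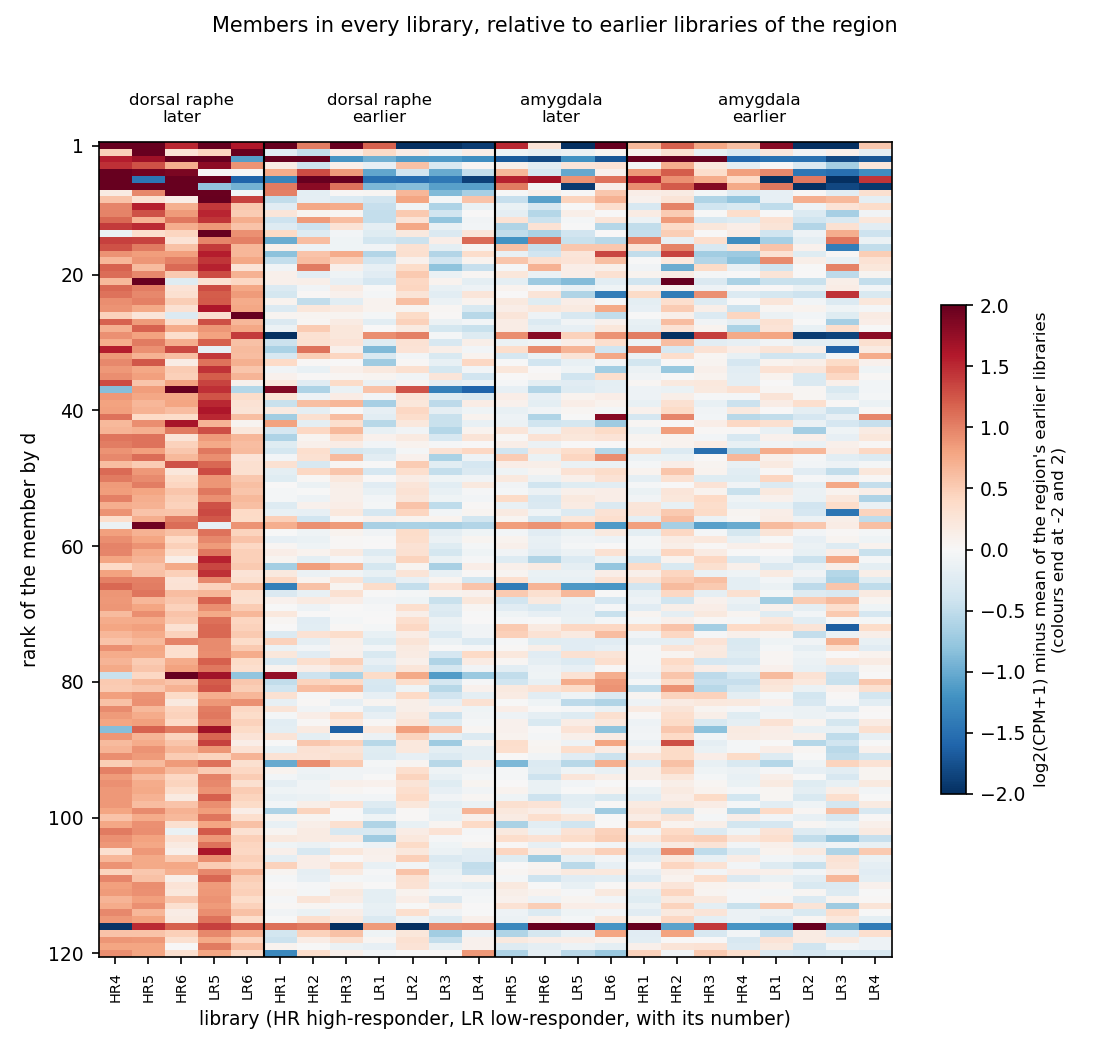
Each member (rows, ordered by d from rank 1 to 120) in each of the 24 libraries (columns), as log2(CPM + 1) minus the mean of the earlier libraries of the same region. Red is higher and blue lower. The 5 later dorsal raphe columns are red over nearly all rows, with low-responder library 5 the deepest, while the later amygdala columns show no common colour, and a few rows near the top change colour from library to library.

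Members fell into 2 kinds by how they varied, a division drawn after the values were seen. For 105 members the highest and lowest dorsal raphe library differed by less than 10-fold with 0.1 CPM added to both, and for 15 by 10-fold or more. In the first kind the later mean was 1.52 to 2.51 times the earlier mean, with a median of 1.72, and all 45 separated members belonged to it. The second kind held 8 of the 14 members with a d of at least 1, and none of its 15 members was separated. Among the 20 largest d, 8 were of the second kind and 12 of the first.

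ENSRNOG00000026979 is an example of the even kind. It had 42.3, 46.7 and 38.1 CPM in later high-responder libraries 4, 5 and 6 and 49.1 and 33.8 CPM in later low-responder libraries 5 and 6. The earlier libraries ran from 21.0 to 31.4 CPM with a median of 25.5 CPM, so the sets did not overlap. Across the 12 dorsal raphe libraries its log2 level followed the mean of the other members with r = 0.99, the closest of the 120. ENSRNOG00000056716 had the largest d of the even kind, 1.23. Its levels were 28.7, 25.1 and 16.9 CPM in later high-responder libraries and 36.4 and 19.03 CPM in later low-responder libraries, against 7.13 to 15.2 CPM with a median of 10.04 CPM in earlier libraries. Its later libraries all lay above the earlier ones, with low-responder library 5 highest again. ENSRNOG00000000463, an abundant member, had 457, 513 and 341 CPM in later high-responder libraries and 468 and 383 CPM in later low-responder libraries, against 216 to 298 CPM with a median of 254 CPM in earlier libraries. Here high-responder library 5 was highest, and the sets again did not overlap.

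The uneven kind includes the top 2 by d. ENSRNOG00000032825, with the largest d of 2.27, had 50.6, 50.04 and 21.5 CPM in later high-responder libraries 4, 5 and 6 and 55.7 and 23.2 CPM in later low-responder libraries 5 and 6. In earlier libraries it had 33.5, 15.2 and 30.96 CPM in high-responder rats and 17.1, 0.622, 0.792 and 1.13 CPM in low-responder rats. The gap came mostly from the 3 earlier low-responder libraries near 1 CPM, and within the lines it was 0.58 in high-responder and 3.51 in low-responder libraries. The amygdala showed the same kind of jump without a relation to the sets, with 14.2 to 35.0 CPM over the 6 high-responder libraries and 0.462 to 55.5 CPM over the 6 low-responder ones.

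ENSRNOG00000029339, at rank 2 with a d of 1.90, was high in 2 later libraries alone. It had 31.5 CPM in high-responder library 5 and 27.7 CPM in low-responder library 6, and the other later libraries had 1.38, 1.06 and 1.30 CPM. The earlier libraries had 0.232 to 1.24 CPM with a median of 0.873 CPM, and the 12 amygdala libraries 0.370 to 1.04 CPM with a median of 0.562 CPM. ENSRNOG00000038045 had 21.3 CPM in low-responder library 6 and 0.262 to 1.54 CPM in the other 11 dorsal raphe libraries. ENSRNOG00000033517 had 27.3 CPM in high-responder library 5 and 1.02 to 3.02 CPM in the other 11, and it was as sharply raised in a single amygdala library, high-responder library 2, with 19.3 CPM. In each of these 3 genes, 1 or 2 later dorsal raphe libraries stood apart from all the others.

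ENSRNOG00000012067 is the member whose gap did not hold in both lines. In later libraries it had 18.9, 0.325 and 18.7 CPM in high-responder rats and 60.8 and 0.209 CPM in low-responder rats. The earlier libraries had 0.456, 51.1 and 50.5 CPM in high-responder rats and 0.292, 0.266, 0.352 and 0 CPM in low-responder rats. Each set held libraries below 1 CPM and libraries at 18.7 CPM or more, with none between, and the gap was -0.97 in high-responder and 2.83 in low-responder libraries. The amygdala libraries showed the same split, with 16.8 to 41.7 CPM in all 6 high-responder libraries and in low-responder libraries 0.758, 26.9, 0.539, 35.4, 24.2 and 27.7 CPM.

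**Figure D3:**
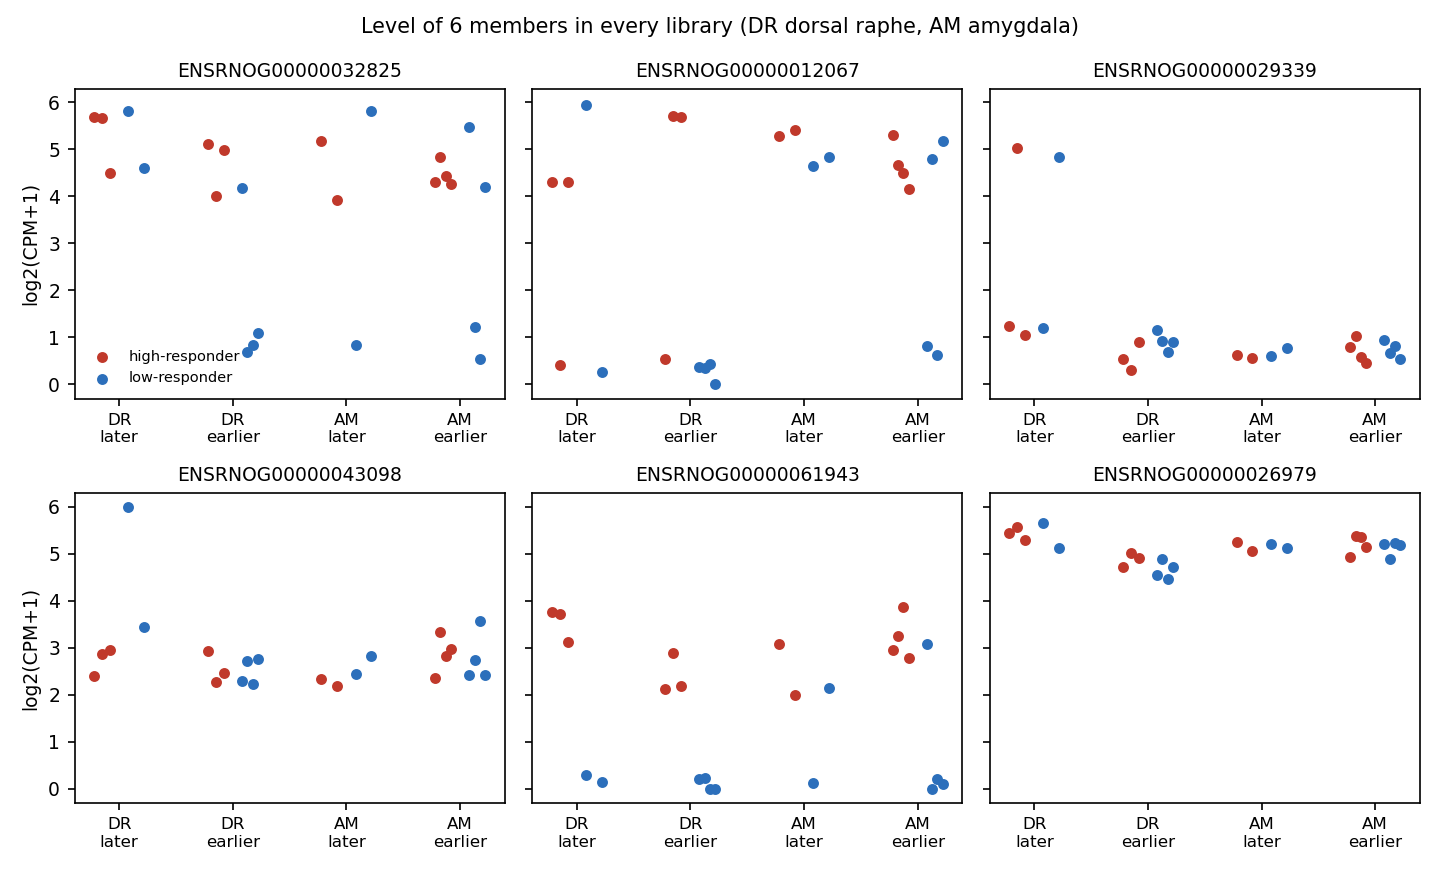
Level of 6 members, as log2(CPM + 1), in every library by region (DR dorsal raphe, AM amygdala) and set, coloured by line. ENSRNOG00000026979 shifts as a block between the dorsal raphe sets, ENSRNOG00000032825 and ENSRNOG00000012067 jump between a low and a high level within sets, ENSRNOG00000029339 is raised in 2 later dorsal raphe libraries, ENSRNOG00000043098 is highest in low-responder dorsal raphe library 5, and ENSRNOG00000061943 is near 0 in every low-responder dorsal raphe library.

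A run of 3 consecutive table lines held 3 members, ENSRNOG00000025764, ENSRNOG00000043098 and ENSRNOG00000018958, and all 3 were highest in low-responder dorsal raphe library 5. Among all members there were 3 pairs on consecutive table lines, not all of them in this run. How often genes within the bounds sit on consecutive lines was not counted. ENSRNOG00000043098 had 4.30, 6.28 and 6.72 CPM in the later high-responder libraries and 62.4 and 9.83 CPM in the later low-responder libraries 5 and 6. Its earlier libraries had 3.70 to 6.57 CPM with a median of 4.55 CPM, so only the 2 later low-responder libraries lay above that range by more than 1 CPM. ENSRNOG00000025764 had 4.30, 3.36 and 2.92 CPM in the later high-responder libraries and 26.5 and 8.26 CPM in the later low-responder libraries. Its earlier libraries had 1.55 to 5.15 CPM with a median of 2.17 CPM. In the amygdala, ENSRNOG00000043098 and ENSRNOG00000018958 were each highest in low-responder library 3, at 10.8 and 597 CPM. The tables carry no coordinates, so nearness on the genome was not examined, and whether reads were shared between these IDs was not tested.

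The members moved together across the dorsal raphe libraries, which the choice of members partly fixes. Over the 12 dorsal raphe libraries, the correlation of a member's log2 level with the mean of the other members had a median of 0.88, and 89 of the 120 reached 0.8. All 89 were of the even kind, whose median was 0.89, against 0.44 for the uneven kind. Over the 12 amygdala libraries, which the rule did not rank, the same correlation had a median of 0.44, 6 members reached 0.8 and 23 were negative. These are descriptions over libraries that share their total as divisor. Such correlations were not computed for other genes, so whether 0.44 is high for the amygdala is not known.

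The amygdala libraries were used to ask whether the same genes stand higher in later libraries there. Later amygdala libraries were numbers 5 and 6 of each line and earlier ones 1 to 4, by the break in each line's own library numbers. The summed level of the members was 3808 and 3312 CPM in later high-responder libraries and 3621 and 3775 CPM in later low-responder libraries, against 3423 to 4333 CPM with a median of 3800 CPM in the 8 earlier libraries. The sets overlapped, at 3629 ± 226 CPM (SD, n = 4) for later and 3839 ± 332 CPM (SD, n = 8) for earlier libraries. The gap in log2(CPM + 1) was above 0 for 55 of the 120 members, which is 45.8%, against 49.1% of the genes within the bounds. Its median was -0.01 for the members. Among amygdala libraries the one where most members stood high was an earlier one, high-responder library 2, with 101 of 120 above the mean of the earlier libraries, and 42 members had their highest amygdala value there. These 2 counts were not made over all genes within the bounds, so they describe the members alone. Every later library lay above every earlier one in 0 members, against 0.19% of the genes within the bounds, and below in 0, against 0.199%.

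With edgeR's quasi-likelihood test and the line as a covariate, 0 of 117 members tested in the amygdala passed an adjusted p of 0.05, against 0.0% of 14265 genes. At an unadjusted p under 0.05 there were 7 members, 3 higher and 4 lower in later libraries, against 3.82% of all genes. DESeq2 and limma each called 2 genes and 0 members. ENSRNOG00000006365, ENSRNOG00000029339 and ENSRNOG00000038045 did not pass the filter on low counts and were not tested. The member with the smallest p was ENSRNOG00000023633. It had 5.97 and 8.42 CPM in later high-responder and 6.34 and 5.38 CPM in later low-responder amygdala libraries, against 7.47 to 14.5 CPM in the 8 earlier ones. High-responder library 6 lay inside the earlier range, and the log2 fold change was -0.59 (SE 0.15, edgeR adjusted p = 0.957). In the dorsal raphe this gene had the smallest d of all members. Whether the gap differs between the regions was not tested.

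**Figure D4:**
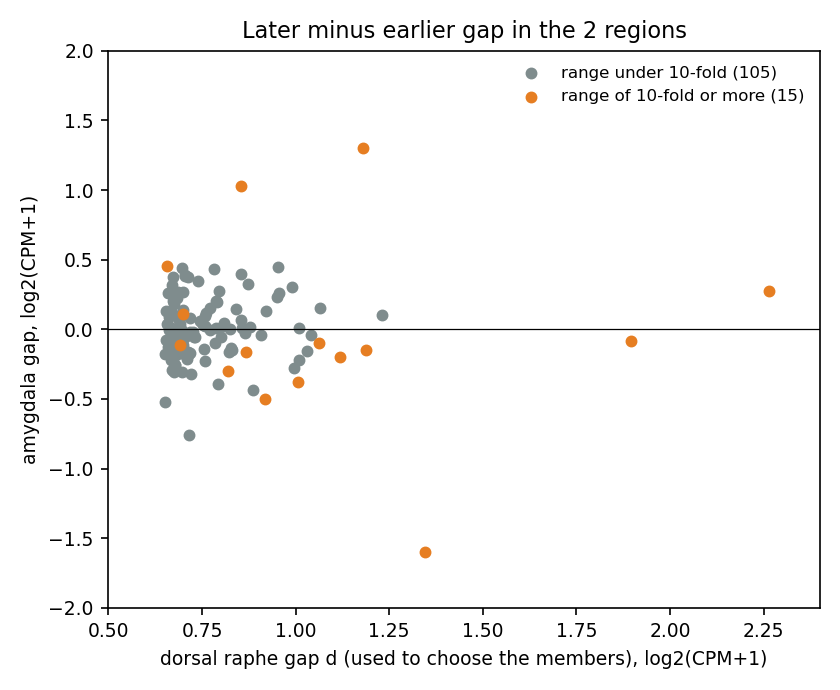
Gap between later and earlier libraries, on the log2(CPM + 1) scale, of each of the 120 members in the dorsal raphe (horizontal, the values that chose them) and in the amygdala (vertical). The amygdala gaps scatter around 0, with 55 of 120 above it, and the 3 widest belong to members whose dorsal raphe libraries ranged over 10-fold or more.

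The levels in the 2 regions are given as a description, since the rule kept the regions within 8-fold of each other and ranked genes by their dorsal raphe levels. Pooled over libraries, 88 members, or 73.3%, were higher in the dorsal raphe and 32 in the amygdala, where 52.4% of the genes within the bounds were higher in the dorsal raphe, and the median log2 ratio of dorsal raphe to amygdala was 0.41, with a range of -2.89 to 2.99. On the log2(CPM + 1) scale the mean of the amygdala libraries lay between those of the later and the earlier dorsal raphe libraries for 50 members. It was below the earlier dorsal raphe mean for 58 and above the later one for 12. Of the genes within the bounds, 21.2% had an amygdala mean between the dorsal raphe means, 41.4% below both and 37.5% above both. ENSRNOG00000037298 was among those in between, with 39.3 to 70.1 CPM in the 5 later dorsal raphe libraries, 22.4 to 32.2 CPM in the 7 earlier ones and 13.1 to 72.5 CPM in the 12 amygdala libraries.

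High-responder and low-responder dorsal raphe were compared within the sets, since the lines hold unequal numbers of later libraries, 3 of 6 and 2 of 6. That imbalance also lets a gene that is higher in high-responder rats gain in d. The lines also hold separate blocks of library numbers. In either region, a difference between the lines therefore cannot be told apart from a difference between those blocks. The rule used these same dorsal raphe values, so the line calls are not independent of the choice of members. Of 119 members tested, 2 were called by edgeR at an adjusted p under 0.05, both higher in high-responder rats, against 0.0834% of the 14390 genes in either direction and 0.0417% in each direction. At an unadjusted p under 0.05 there were 12 members, 8 higher and 4 lower, against 8.54% of all genes, a share near that of all genes. All 6 high-responder libraries lay above all 6 low-responder libraries for the same 2 members, against 0.671% of the genes within the bounds, and below them for 0 members, against 0.154%.

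The first was ENSRNOG00000061943. It had 3.38 to 12.5 CPM with a median of 7.06 CPM in the 6 high-responder dorsal raphe libraries and 0 to 0.230 CPM with a median of 0.125 CPM in the 6 low-responder ones. The low-responder libraries held 0 to 3 counts each, so the fitted log2 difference, 5.67 with an SE of 0.39 and an edgeR adjusted p of 3.50e-05, depends on the prior count of the fit. Its gap between later and earlier libraries was 1.13 in high-responder and 0.11 in low-responder libraries. In the amygdala all 6 high-responder libraries had 3.00 to 13.6 CPM, but the low-responder libraries were split, with 7.50 and 3.44 CPM in libraries 1 and 6 and 0 to 0.154 CPM in the other 4. The groups overlapped there, and the log2 fold change was 1.96 (SE 0.80, edgeR adjusted p = 0.537). Without low-responder amygdala library 1 it was 3.39. What sets those 2 libraries apart from the other 4 was not tested.

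The second was ENSRNOG00000037673, with 6.20 to 17.7 CPM and a median of 12.3 CPM in high-responder dorsal raphe and 1.09 to 3.35 CPM and a median of 2.20 CPM in low-responder dorsal raphe. The log2 fold change was 2.18 (SE 0.19, edgeR adjusted p = 0.000141). Unlike ENSRNOG00000061943 it was detected in every library of both lines. Both lines showed a gap between the sets, 1.01 in high-responder and 0.73 in low-responder libraries. In the amygdala it had 3.87 to 13.1 CPM in high-responder libraries, and in low-responder libraries 1 and 6 again stood apart, with 10.9 and 5.52 CPM against 1.16 to 2.00 CPM in the other 4. That comparison gave 1.20 on the log2 scale (SE 0.51, adjusted p = 0.565 with edgeR). Both calls held when any 1 dorsal raphe library was left out. With the 5 later libraries alone, the adjusted p was 0.129 for each, with folds of 5.81 and 2.21 on the log2 scale.

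In the amygdala, 0 of 117 members were called between the lines by edgeR, against 0.014% of 14265 genes, and 14 members had an unadjusted p under 0.05, against 8.43%. All high-responder libraries lay above all low-responder ones in 0 members, against 0.372% of the genes within the bounds, and below them in 0, against 0.254%. DESeq2 called 1 member, among 81 of the 14265 genes, and limma 5 members, among 348. The smallest p was again that of ENSRNOG00000023633, at 5.97 to 14.5 CPM with a median of 10.9 CPM in high-responder and 5.38 to 7.75 CPM with a median of 7.53 CPM in low-responder amygdala. The groups overlapped through high-responder library 5, and the log2 fold change was 0.58 (SE 0.13, edgeR adjusted p = 0.240). Without high-responder amygdala library 2 it was 0.64 with an adjusted p of 0.0396. The sign of this gene's line difference was the opposite in the dorsal raphe, at -0.24 (SE 0.28, edgeR adjusted p = 0.865), a difference between regions that was not tested.

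The gap between later and earlier dorsal raphe libraries within each line is a description, since the same values chose the members and raise it in both lines. In high-responder libraries it was above 0 for 119 of the 120 members with a median of 0.66, against 46.6% of the genes within the bounds. In low-responder libraries it was above 0 for all 120 with a median of 0.81, against 44.1%. A test of whether it differed between the lines, the line by set interaction in edgeR, called 0 of 119 members and 0.0% of 14390 genes. At an unadjusted p under 0.05 there were 5 members, all with a larger gap in low-responder rats, against 2.16% of all genes. DESeq2 and limma also called 0 genes. ENSRNOG00000012067, the member whose gap was below 0 in high-responder libraries, did not pass the filter on low counts. It was therefore not among the 119 members tested in the dorsal raphe, here or between the lines. With no low count filter, the interaction was tested for all 120 members and called 0. The interaction is the high-responder gap minus the low-responder gap, and its median over the members was -0.20 on the log2 scale, with 0.21 without low-responder dorsal raphe library 5 and -0.48 without low-responder library 6, so its sign rests on a single library. With low-responder library 6 left out, which leaves library 5 as the only later low-responder library, assumed to vary like the others, 6 genes and 1 member were called. That member was ENSRNOG00000043098, whose fold in the interaction was -2.79 (SE 0.77, edgeR adjusted p = 1) with all libraries and -3.59 (adjusted p = 0.0232) without that library.

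**Figure D5:**
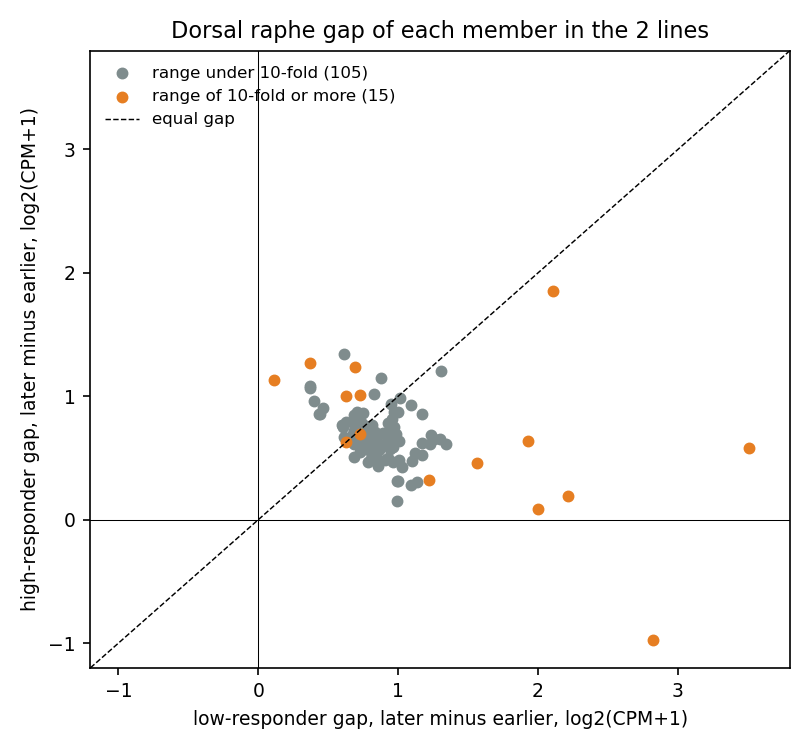
Gap between later and earlier dorsal raphe libraries of each member in high-responder (vertical) and low-responder rats (horizontal), on the log2(CPM + 1) scale, with the line of equal gaps. All but 1 member lie above 0 on both axes. Most of the 105 members with a range under 10-fold cluster around the medians of 0.66 and 0.81, and the points far to the right are members with a range of 10-fold or more.

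Library depth and another block of counts were examined beside these gaps. Totals of the dorsal raphe libraries were 9232983 to 18845579 counts in the later set and 10960530 to 19350143 in the earlier set, and the ranges overlapped. The 662 table lines above line 32000 took 9.41% to 15.99% of the counts in later dorsal raphe libraries, 7.81% to 9.68% in earlier ones and 3.00% to 9.46% in the amygdala. Their share was mostly higher in the later dorsal raphe libraries, but the sets overlapped. Later high-responder library 6 had 9.41% and earlier low-responder library 2 had 9.68%. The share was highest in low-responder library 5 among later libraries and in low-responder library 2 among earlier ones. In those libraries the median member also stood highest within its set. The order of the other libraries was not the same for the share and the members. With totals that leave those lines out, 116 of the 120 members were chosen again. With those lines left out of counts and totals, the fitted log2 fold change between later and earlier dorsal raphe libraries had a median of 0.86 over the 119 members tested. Of these, 108 were called, against a median of 0.88 and 112 called with those lines. The choice of members largely fixes these values. Over all genes, edgeR called 6747 of 14187 without those lines, with a median of 0.01, and 6919 of 14390 with them, with a median of 0.03. Whether that block and the gap share a source was not tested.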

How the data were processed

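Raw read counts per Ensembl gene ID, 1 table per library, were used as deposited. The submitters' processing notes name STAR, Trim Galore and the rat build rn6. Tool versions, counting program, annotation and strand setting are not given in the sources used here, so near-identical, overlapping and antisense genes could not be told apart. The tables had 0 lines that name no gene, totals of 9232983 to 20194601 counts, and counts in any library for 24750 of 32662 IDs. No pair of libraries within a group agreed within counting noise.

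The members and gene lists were chosen with earlier results of these data known. Without gene names the lists could not be applied, and at most 2 higher and 2 lower IDs per test were to be named, besides those singled out. Comparisons used edgeR 4.0.16 (filterByExpr, TMM, glmQLFTest) in R 4.3.3 on the 12 libraries of a region with line and set as terms, with Benjamini-Hochberg adjustment over all genes and a threshold of 0.05. SE is the log2 fold change over the square root of F. Alternatives included DESeq2 1.42.0 and limma 3.58.1. The scripts were tested on simulated data. Replicate numbers did not consistently pair libraries across lines. In the dorsal raphe, correlations of deviations ran from -0.55 to 0.69, and from -0.34 to 0.40 with the means of the sets removed. In the amygdala, with those means removed, they ran from -0.17 to 0.62, the highest for library 3. Sequences are not shown.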

Additional observations from a re-analysis of the deposited data

Results flagged for a closer look

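A library far from the other 5 of its group was looked for in 72 groups of 6 values (16 named members, the sum over all 120 and the total counts, each in 4 groups), and 15 were found, where chance gives about 3.6. Most of these members were named for how their values jump between libraries, so the count cannot be read against that rate. The group sizes are small, and no explanation was tested for any of them. ENSRNOG00000029339 reached 31.5 CPM in dorsal raphe library 5 of the high-responder line and 27.7 CPM in dorsal raphe library 6 of the low-responder line. ENSRNOG00000012067 stood apart in low-responder dorsal raphe library 5 at 60.8 CPM. ENSRNOG00000033517 stood apart in high-responder dorsal raphe library 5 at 27.3 CPM and in high-responder amygdala library 2 at 19.3 CPM. ENSRNOG00000038045 did so in low-responder dorsal raphe library 6 at 21.3 CPM. ENSRNOG00000006365 reached 8.51 CPM in low-responder dorsal raphe library 5, with the next library of its group at 0.219 CPM. ENSRNOG00000056716 had 12.2 CPM in high-responder amygdala library 2, and ENSRNOG00000000463 had 545 CPM in low-responder amygdala library 3.

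The run of 3 members on consecutive table lines accounts for 5 of the 15. In low-responder dorsal raphe library 5, ENSRNOG00000018958 was at 941 CPM, ENSRNOG00000043098 at 62.4 CPM and ENSRNOG00000025764 at 26.5 CPM. In low-responder amygdala library 3, ENSRNOG00000018958 was at 597 CPM and ENSRNOG00000043098 at 10.8 CPM. Apart from the members, amygdala library 1 of the high-responder line held the most counts, 20194601, with the next of its group at 12243679.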

How the results depend on the processing

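Among the counts and the folds followed through the alternative runs, none changed direction. The line folds of ENSRNOG00000037673 in the amygdala and ENSRNOG00000023633 in the dorsal raphe were not followed. The median interaction over the members changed sign without low-responder dorsal raphe library 5, as given above. In the dorsal raphe, the count of genes called between later and earlier libraries stayed within 1.5 times of the 6919 given, at 4927 to 7731 with 1 library left out, the lowest without low-responder library 5. In the amygdala DESeq2 and limma called 2 genes each for the same comparison, and 0 members. Between the lines in the dorsal raphe the 12 genes called became 26 with no low count filter, 85 with DESeq2, 114 with limma, 0 with later libraries alone and 6 to 18 with 1 library left out. The 2 members called became 5 with DESeq2, 4 with limma, 0 with later libraries alone and 2 to 3 with 1 library left out. In the amygdala the 2 genes called between the lines became 15 with no low count filter, 81 with DESeq2, 348 with limma, 0 with earlier libraries alone, 61 with later libraries alone and 1 to 101 with 1 library left out, 101 being without high-responder library 2 and 17 without low-responder library 3. The 0 members called there became 1 with no low count filter, 1 with DESeq2, 5 with limma and 0 to 2 with 1 library left out. For the difference of the gap between lines, leaving out 1 library gave 0 to 6 genes and 0 to 1 members, the highest without low-responder dorsal raphe library 6. With the replicate block, which rests on shared numbers only, 7 genes and 2 members were called between the lines in the dorsal raphe and 3 genes and 0 members in the amygdala. Runs on later or earlier libraries alone hold fewer libraries, and the cause of none of these changes was tested.

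Among single members, ENSRNOG00000025764 passed between the lines in the dorsal raphe with DESeq2 alone (log2 fold change -1.54, adjusted p = 0.0187), and ENSRNOG00000061943 passed in the amygdala with limma (4.31, adjusted p = 0.0209). ENSRNOG00000023633 passed in the amygdala with DESeq2 (adjusted p = 0.0192), with limma (0.0279) and without high-responder library 2 (0.0396). The choice of members kept 61 of 120 at a minimum of 20 CPM, 83 with a pseudocount of 5, 101 at a minimum of 1 CPM, 107 with the mean of the within-line gaps, 113 with a pseudocount of 0.5, 116 with totals without table lines above 32000, 118 with TMM scaling, and 95 to 109 with 1 library left out. Low-count members, such as those at 0 to 3 counts in a library, limit what a fold can show.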
